A study of Danio rerio with 10 samples.

Results

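The zebrafish matrix metalloproteinase genes were read by 9 probe sets for 7 genes, out of 15502 probe sets tested and 8793 genes named by the array annotation. A probe set was taken when its gene symbol, or the current symbol of its Entrez ID, began with mmp followed by a digit. The 7 genes were mmp2, mmp9, mmp11b, mmp13a, mmp14a, mmp14b and mmp17b, with 2 probe sets each for mmp2 and mmp14a and 1 for every other gene. The RefSeq gene table for zebrafish lists 25 genes of that name pattern, and the other 18 had no probe set named for them and were not analysed here.

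RNA of whole wild-type zebrafish embryos at 72 h after fertilization was hybridised to a 1-colour Affymetrix zebrafish GeneChip. Eggs at the 1- to 2-cell stage had received 1 to 2 nL of morpholino at 130 micromol/L. Morpholinos are synthetic antisense oligonucleotides that block translation or splicing of a transcript, and injected embryos are called morphants. Dual morphants, which received the Atg7 and the Bdh2 morpholino together, had 3 arrays, Atg7 morphants had 3, Bdh2 morphants had 1 and control morphants had 3. All 4 groups were injected, so the controls carry the injection as well. Atg7 is an enzyme needed to form autophagosomes, and Bdh2 catalyses a step in the synthesis of the iron-binding siderophore of mammals. The labels leave unstated how the 130 micromol/L was divided in dual injections, what the control morpholino was, and how many embryos entered a sample. They also do not say that each replicate was its own clutch. The p-values therefore cover only the spread among these samples, and that spread may be technical.

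Matrix metalloproteinases are zinc-dependent proteases that cut collagens, gelatin, fibronectin and other proteins outside the cell. Most are secreted as inactive precursors, are opened by other proteases, and are held in check by tissue inhibitors of metalloproteinases (TIMPs). In zebrafish, mmp9 and mmp13a are known from myeloid cells and from the wounded or regenerating fin fold, and in mammals both genes are known targets of the AP-1 and NF-kB transcription factors.

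The transcript of a morpholino target does not need to fall, since a block of translation can leave it in place. The bdh2 probe set averaged 7.28 in dual, 7.21 in Atg7 and 7.17 in control arrays and read 7.47 in the Bdh2 array (log2 intensity), so it was not lower where the Bdh2 morpholino was injected. No probe set named for atg7 was analysed here. The array medians lay between 6.32 and 6.38. RNA quality was read from the actin and GAPDH controls, as 3 prime minus 5 prime signal. For actin this difference was 3.86 ± 0.0444 in dual, 3.93 ± 0.109 in Atg7 and 3.45 ± 0.0671 in control arrays (log2, SD, n = 3 each), with 4.3 for the lone Bdh2 array. The actin difference was thus higher than controls in all 3 other groups. For GAPDH it was 1.7 ± 0.0261 in dual, 1.67 ± 0.122 in Atg7 and 1.58 ± 0.0537 in control arrays, with 1.7 for the Bdh2 array. The GAPDH range of Atg7 arrays, 1.53 to 1.77, covered that of control arrays, 1.53 to 1.63. The part of RNA quality in the results was not tested.

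The strongest pattern among these genes was seen in mmp9 and mmp13a, which were highest in Atg7 morphants, intermediate in controls, and below controls in dual morphants and in the Bdh2 array. The gelatinase mmp9, which cleaves denatured collagen and basement membrane collagen, had log2 intensities of 5.95, 5.84 and 5.99 in dual arrays, 8.46, 8.57 and 8.51 in Atg7 arrays, 6.11 in the Bdh2 array, and 6.75, 6.83 and 6.69 in control arrays. All Atg7 arrays were high, all dual arrays were below all control arrays, and the 3 triplicate groups did not overlap. Its group means were 5.93 ± 0.0773 in dual, 8.51 ± 0.0581 in Atg7 and 6.76 ± 0.0691 in control morphants (SD, n = 3 each). The order of levels was therefore Atg7, control, Bdh2, dual, and the last 2 could not be separated.

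The collagenase mmp13a, a counterpart of mammalian collagenase 3, which cuts fibrillar collagen, had log2 intensities of 6.31, 6.05 and 6.07 in dual arrays, 9.06, 8.96 and 9.14 in Atg7 arrays, 5.82 in the Bdh2 array, and 7.60, 7.47 and 7.61 in control arrays. Again the Atg7 arrays were the highest, the dual arrays lay below every control array, and no triplicate groups overlapped. Means were 6.14 ± 0.144 in dual, 9.05 ± 0.0901 in Atg7 and 7.56 ± 0.0767 in control morphants (SD, n = 3 each). The Bdh2 array was lower than each dual array, but the difference between these groups did not pass the test. The suffix of the mmp13a probe set marks probes shared by several transcripts, so its value may not belong to a single transcript. Levels of different probe sets are not comparable, and only differences within a probe set are read here.

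**Figure D1:**
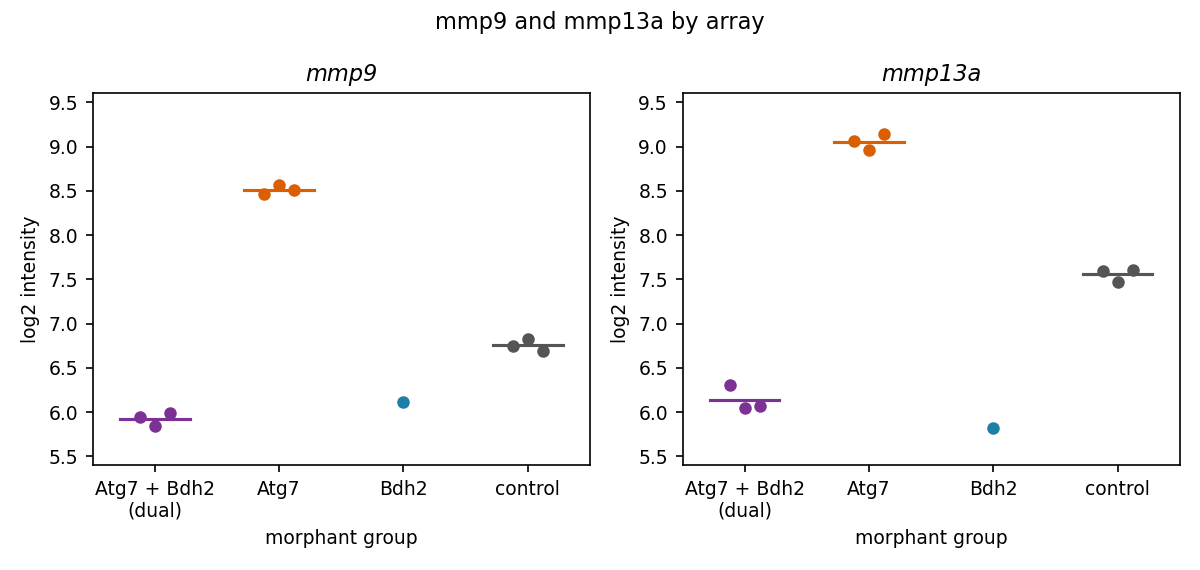
Log2 intensity of mmp9 and mmp13a in each array, with groups in the order dual, Atg7, Bdh2 and control along the horizontal axis; points are arrays and horizontal lines are the means of groups with 3 arrays. In both panels the 3 Atg7 arrays stand above all others, and the dual arrays and the Bdh2 array stand below the 3 control arrays.

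The comparison of Atg7 morphants with controls asks what the Atg7 morpholino changed on its own. Relative to controls, mmp9 rose by 1.76 ± 0.065 on the log2 scale (SE; 95% interval 1.61 to 1.90; limma, adjusted p = 3.57e-08), a 3.38-fold rise. Adjustment was by the Benjamini-Hochberg method over all probe sets, and a value below 0.05 was called. It was the second largest rise among the 15502 probe sets. In the same comparison mmp13a rose by 1.49 ± 0.081 (1.31 to 1.67; adjusted p = 6.58e-07), or 2.81-fold, and ranked 6 from the top. The smallest gap between an Atg7 and a control array was 1.63 for mmp9 and 1.35 for mmp13a, many times the SD within either group.

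Dual morphants against controls ask what both morpholinos changed together. There mmp9 fell by 0.83 ± 0.065 on the log2 scale (limma, adjusted p = 1.85e-06), which put dual morphants 1.78-fold lower. The fall of mmp13a was larger, at -1.42 ± 0.081 (adjusted p = 1.19e-07), or 2.67-fold lower. Both genes were thus raised in one morphant group and lowered in the other relative to the same control arrays, which the comparisons share.

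Dual morphants differ from Atg7 morphants by the added Bdh2 morpholino. Since the division of the dose in dual injections is unstated, a lower Atg7 morpholino dose in dual embryos cannot be told apart from an effect of the Bdh2 morpholino. For mmp9 the difference was -2.59 ± 0.065 (95% interval -2.73 to -2.45; limma, adjusted p = 7.62e-11), a 6.01-fold lower level in dual morphants. For mmp13a it was -2.91 ± 0.081 (-3.09 to -2.73; adjusted p = 2.2e-10), or 7.50-fold. Their falls ranked 15 and 12 from the bottom of all probe sets, and the smallest gaps between dual and Atg7 arrays were 2.47 and 2.65.

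The Bdh2 array has no replicate. Comparisons with it use the spread of the other 3 groups, assume that it varies as they do, and have no replicate check. In that fit mmp9 was lower than in controls by -0.64 ± 0.093 (limma, adjusted p = 0.000326) and mmp13a by -1.73 ± 0.12 (adjusted p = 6.58e-07), 1.56-fold and 3.33-fold. Dual morphants minus the Bdh2 array gave -0.19 ± 0.093 for mmp9 (95% interval -0.39 to 0.01; adjusted p = 0.223) and 0.32 ± 0.12 for mmp13a (0.07 to 0.57; adjusted p = 0.101). Neither passed the threshold of 0.05 after adjustment over all probe sets, and the intervals do not show that these levels are equal.

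Whether the effects of the morpholinos added up on the log2 scale was tested as dual minus Atg7 minus Bdh2 plus control. This departure from additivity was -1.95 ± 0.11 for mmp9 (95% interval -2.19 to -1.70; limma, adjusted p = 2.76e-06), the 8th lowest of all probe sets. It was -1.17 ± 0.14 for mmp13a (-1.48 to -0.87; adjusted p = 0.000405). For mmp9 the Atg7 morpholino thus went with 1.76 without the Bdh2 morpholino and with -0.19 in its presence. For mmp13a the corresponding values were 1.49 and 0.32. Both tests rest on the lone Bdh2 array, and the unstated dose applies to them too.

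**Figure D2:**
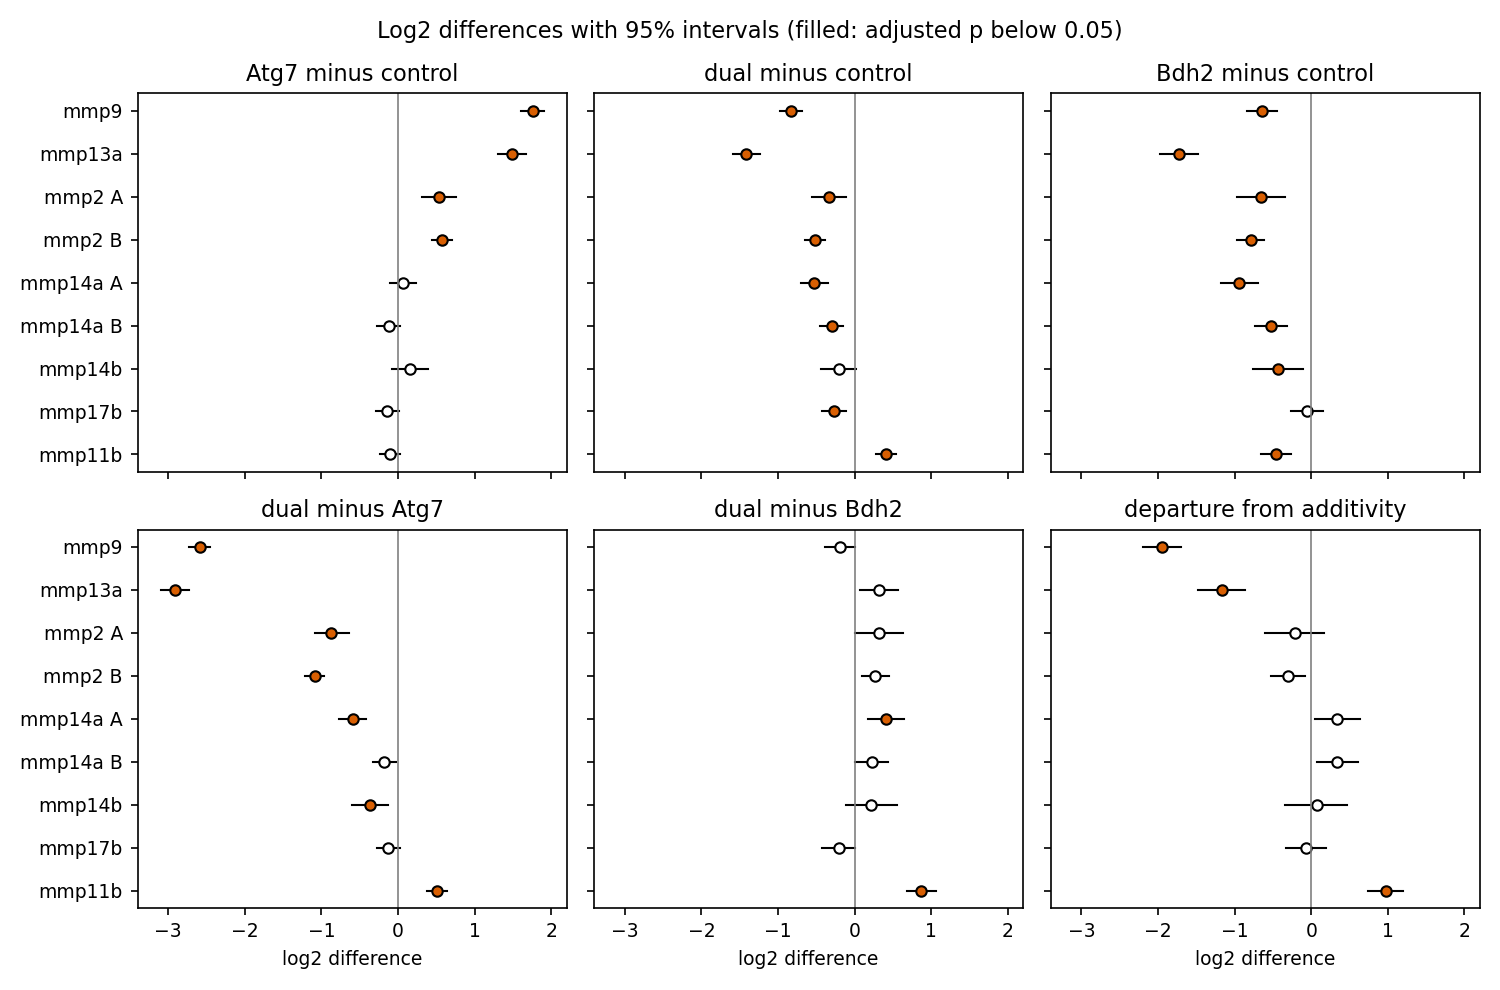
Log2 differences with 95% intervals from the limma fit for the 9 metalloproteinase probe sets in each comparison and for the departure from additivity. The values of mmp9 and mmp13a lie to the right of 0 for Atg7 minus control and furthest to the left for dual minus Atg7, while mmp11b lies to the right of 0 in dual minus control and dual minus Atg7.

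The other gelatinase, mmp2, followed the same order of triplicate groups with smaller steps. Its first probe set (A) read 7.30, 7.48 and 7.77 in dual arrays, 8.35, 8.49 and 8.31 in Atg7 arrays, 7.20 in the Bdh2 array, and 7.90, 7.77 and 7.88 in control arrays. Its second (B) read 8.64, 8.54 and 8.58 in dual arrays, 9.68, 9.69 and 9.68 in Atg7 arrays, 8.32 in the Bdh2 array, and 9.04, 9.17 and 9.12 in control arrays. Atg7 arrays were the highest on both, and dual arrays of probe set B were clearly apart from controls, whereas on probe set A the highest dual and the lowest control array met to within rounding.

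In Atg7 morphants mmp2 rose against controls by 0.53 ± 0.10 on probe set A (limma, adjusted p = 0.0069) and by 0.57 ± 0.059 on B (adjusted p = 0.000107). In dual morphants it was lower than in Atg7 morphants by -0.87 ± 0.10 on A (adjusted p = 5.07e-05) and by -1.09 ± 0.059 on B (adjusted p = 6.83e-08). Both probe sets therefore changed in the same direction as mmp9 and mmp13a in these comparisons. Dual minus control was -0.52 ± 0.059 on B (adjusted p = 3.7e-05) and -0.33 ± 0.10 on A (adjusted p = 0.0257). The call on A was lost without control replicate 1 (-0.31, adjusted p = 0.0799) or 3 (-0.32, 0.0726), and without dual replicate 1 (-0.23, 0.0972) or 2 (-0.31, 0.0791). Against controls the Bdh2 array was lower by -0.65 ± 0.14 on A (adjusted p = 0.00543) and by -0.79 ± 0.083 on B (adjusted p = 3.01e-05). Dual minus Bdh2 was 0.32 ± 0.14 on A (adjusted p = 0.187) and 0.27 ± 0.083 on B (adjusted p = 0.0576). The departure from additivity of mmp2 did not pass the test on either probe set, at -0.21 ± 0.18 on A (adjusted p = 0.557) and -0.30 ± 0.10 on B (adjusted p = 0.0978).

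Membrane-type metalloproteinases sit in the plasma membrane, and in mammals MMP14 opens the precursor of MMP2 at the cell surface. The zebrafish gene mmp14a had log2 intensities on probe set A of 6.76, 6.70 and 6.91 in dual arrays, 7.46, 7.41 and 7.29 in Atg7 arrays, 6.38 in the Bdh2 array, and 7.43, 7.31 and 7.22 in control arrays. On probe set B it read 6.10, 6.04 and 6.19 in dual arrays, 6.21, 6.34 and 6.33 in Atg7 arrays, 5.89 in the Bdh2 array, and 6.52, 6.35 and 6.37 in control arrays. Atg7 and control arrays overlapped on probe set A and lay next to each other on B, and the dual and Bdh2 arrays were the lowest on both.

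Unlike mmp9 and mmp13a, mmp14a was not past the threshold in Atg7 morphants, at 0.07 ± 0.078 on A (limma, adjusted p = 0.629) and -0.12 ± 0.07 on B (adjusted p = 0.326). Dual morphants were lower than controls by -0.53 ± 0.078 on A (adjusted p = 0.000299) and by -0.30 ± 0.07 on B (adjusted p = 0.0058). The Bdh2 array was lower still, by -0.94 ± 0.11 on A (adjusted p = 7.51e-05) and by -0.53 ± 0.098 on B (adjusted p = 0.00187). Dual minus Atg7 passed on A (-0.59 ± 0.078, adjusted p = 0.000123) but not on B (-0.18 ± 0.07, adjusted p = 0.065). Dual morphants stood above the Bdh2 array by 0.41 ± 0.11 on A (adjusted p = 0.032) and by 0.23 ± 0.098 on B (adjusted p = 0.169). On A this call was not kept without control replicate 2 (0.41, adjusted p = 0.0507) or dual replicate 3 (0.35, adjusted p = 0.0711). The departure from additivity was 0.34 ± 0.14 on A (adjusted p = 0.165) and 0.34 ± 0.12 on B (adjusted p = 0.114).

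The second MMP14 counterpart, mmp14b, varied more within groups. It read 6.41, 6.55 and 6.83 in dual arrays, 7.11, 6.81 and 6.97 in Atg7 arrays, 6.37 in the Bdh2 array, and 6.77, 6.90 and 6.74 in control arrays. The dual, Atg7 and control arrays overlapped, and dual replicate 3 lay within the control range. Dual minus Atg7 was -0.37 ± 0.11 (limma, adjusted p = 0.0197), and it lost the call without Atg7 replicate 1 (-0.29, adjusted p = 0.0722), dual replicate 1 (-0.27, 0.0787) or dual replicate 2 (-0.34, 0.0661). Bdh2 minus control was -0.43 ± 0.15 (adjusted p = 0.0497). It did not pass when control replicate 1 was left out (-0.45, adjusted p = 0.075), nor without control replicate 2 (-0.39, 0.115) or 3 (-0.47, 0.0608), Atg7 replicate 3 (-0.43, 0.0615) or dual replicate 2 (-0.43, 0.0659). Neither Atg7 minus control (0.16 ± 0.11, adjusted p = 0.396) nor dual minus control (-0.21 ± 0.11, adjusted p = 0.159) passed, although the second did without dual replicate 3 (-0.33, adjusted p = 0.0252).

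The counterpart of MMP17, a membrane-type enzyme held by a lipid anchor in mammals, was dim. The mmp17b probe set read 4.31, 4.25 and 4.39 in dual arrays, 4.31, 4.50 and 4.53 in Atg7 arrays, 4.53 in the Bdh2 array, and 4.57, 4.59 and 4.59 in control arrays, and its mean stood at percentile 21.7 of all probe sets. All arrays lay within a narrow band, with controls on top. Dual minus control was -0.27 ± 0.07 (limma, adjusted p = 0.0114), a call that ended without dual replicate 2 (-0.23, adjusted p = 0.0535). No other comparison of mmp17b passed.

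The stromelysin-type gene mmp11b, whose mammalian counterpart is opened by furin before secretion, moved the other way in dual morphants. It read 9.32, 9.35 and 9.31 in dual arrays, 8.84, 8.75 and 8.86 in Atg7 arrays, 8.46 in the Bdh2 array, and 8.88, 8.87 and 8.99 in control arrays. The 3 dual arrays were the highest, the Bdh2 array was the lowest, and the Atg7 arrays lay just under the controls. Dual morphants exceeded controls by 0.41 ± 0.061 (limma, adjusted p = 0.000279) and Atg7 morphants by 0.51 ± 0.061 (adjusted p = 5.49e-05). Atg7 morphants did not differ from controls past the threshold (-0.10 ± 0.061, adjusted p = 0.343). The Bdh2 array was lower than controls by -0.46 ± 0.086 (adjusted p = 0.0019), and dual morphants were higher than that array by 0.87 ± 0.086 (adjusted p = 7.81e-05). Its departure from additivity was 0.97 ± 0.11 (adjusted p = 0.000208), the opposite sign to mmp9 and mmp13a.

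**Figure D3:**
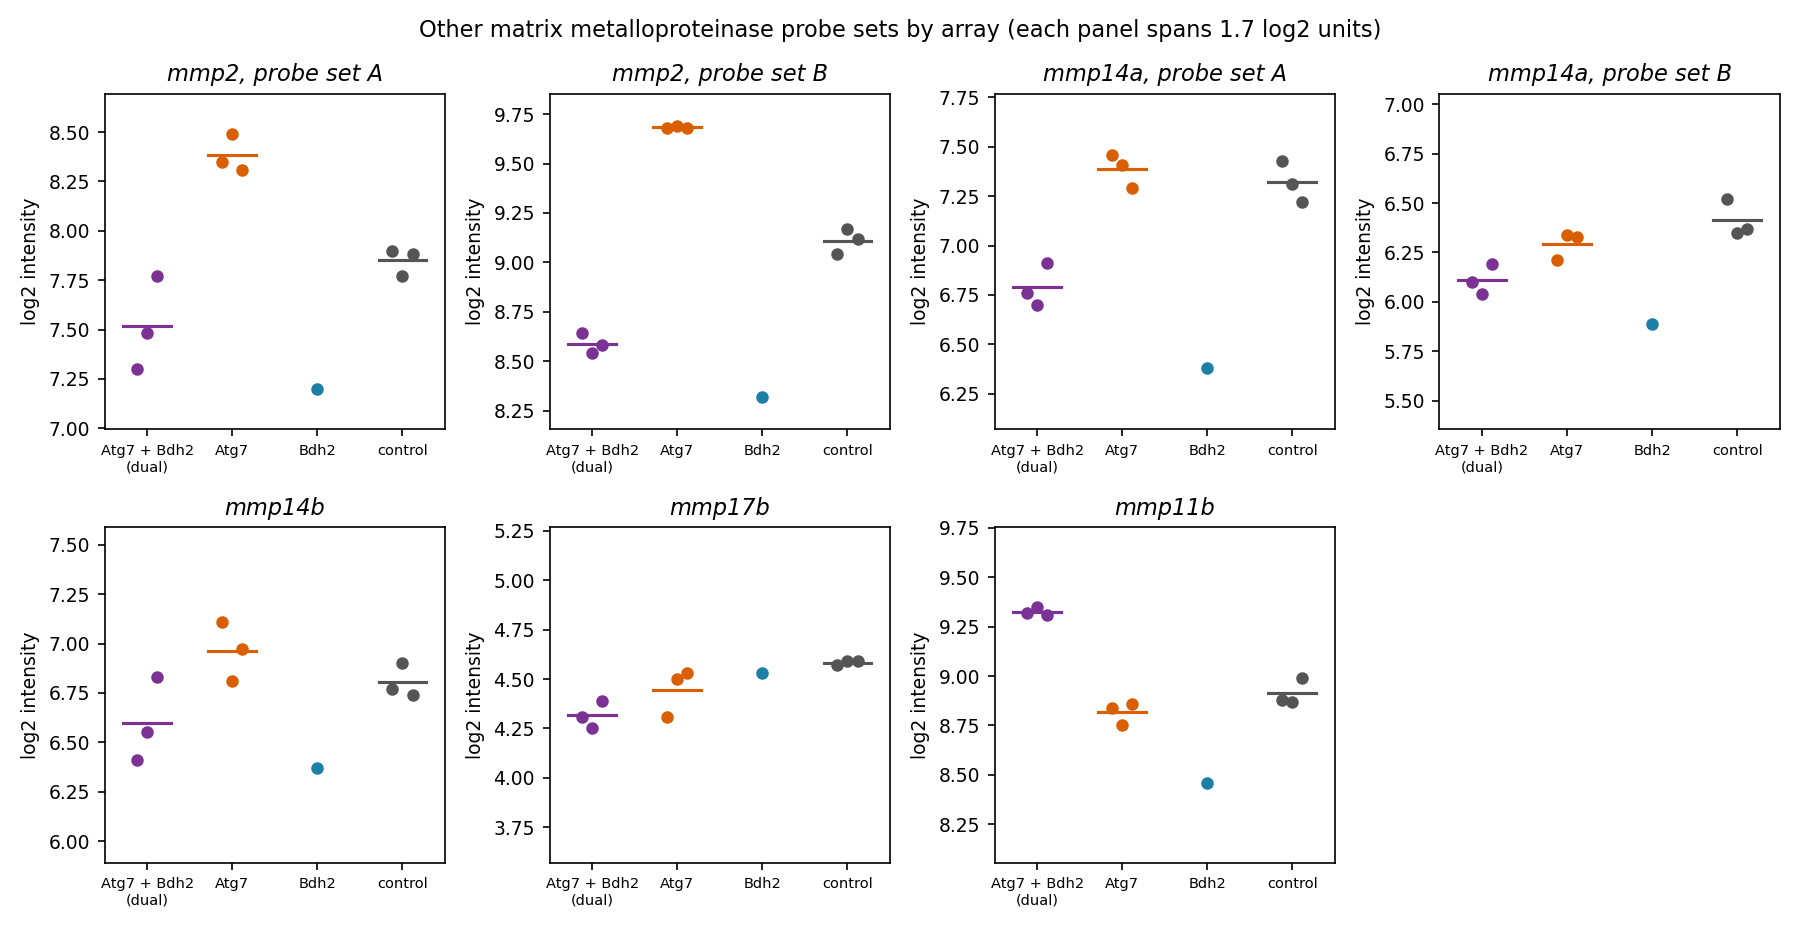
Log2 intensity of the other 7 metalloproteinase probe sets in each array, in the order dual, Atg7, Bdh2 and control, with points for arrays and lines for the means of groups with 3 arrays. Both mmp2 probe sets are highest in Atg7 arrays, both mmp14a probe sets are lowest in dual and Bdh2 arrays, and mmp11b is highest in dual arrays.

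Counts over the 9 probe sets were read against those of the whole array. In Atg7 morphants against controls 4 passed the threshold, all higher (mmp9, mmp13a and both mmp2 probe sets), where 9.91% of all probe sets passed, 6.26% higher and 3.64% lower. A change of at least 2-fold was called for mmp9 and mmp13a, against 0.194% of all probe sets. Atg7 and control arrays did not overlap for 7 of 9, against 30.4% of all probe sets, and the median log2 difference was 0.16 for the 9 and -0.009 for all. Of those 7, mmp11b, mmp14a probe set B and mmp17b were lower in Atg7 arrays and did not pass. Their gaps between the groups were only 0.01, 0.01 and 0.04. In dual morphants against controls 8 passed, 1 higher and 7 lower, where 32.5% of all probe sets passed, 16.7% higher and 15.9% lower. Without single arrays the count of 8 ranged over 6 to 9. The change reached 2-fold for mmp13a alone, against 1.5% of all probe sets, and the groups did not overlap for 8 of 9, against 46.4%. Their median difference was -0.33, against -0.008 over all probe sets.

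Between dual and Atg7 morphants 7 of 9 passed, 1 higher and 6 lower, against 33.0% of all probe sets, 15.8% higher and 17.2% lower. Without single arrays the count of 7 ranged over 6 to 8. A change of at least 2-fold was seen for 3 of the 9, mmp9, mmp13a and mmp2 probe set B, against 1.58% of all probe sets. Groups did not overlap for 7 of 9, against 44.1%, and the median difference was -0.59, against 0.012 over all probe sets. For Bdh2 minus control 8 of 9 passed, all lower, against 28.2% of all probe sets, 15.0% higher and 13.2% lower, and mmp13a was called at 2-fold or more, against 2.36%. For dual minus Bdh2, mmp11b and mmp14a probe set A passed, both higher, against 12.1% of all probe sets, 6.53% higher and 5.53% lower. That count was 1 without control replicate 2 or dual replicate 3. The departure from additivity passed for mmp9 and mmp13a below 0 and for mmp11b above 0, against 8.13% of all probe sets, 3.81% above and 4.32% below. For mmp9 and mmp13a it amounted to at least 2-fold, against 0.793%.

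The inhibitors of these enzymes were measured for 3 of 14 listed genes, timp2a, timp2b and spock3. In mammals TIMP2 both blocks metalloproteinases and takes part in opening MMP2 with MMP14. The gene timp2b read 4.76, 4.74 and 4.70 in dual arrays, 5.73, 5.93 and 5.82 in Atg7 arrays, 4.80 in the Bdh2 array, and 5.10, 5.18 and 4.98 in control arrays. Its Atg7 arrays were again highest and the dual arrays were below all controls. It rose in Atg7 morphants against controls by 0.74 ± 0.07 (limma, adjusted p = 6.24e-05) and was lower in dual than in Atg7 morphants by -1.09 ± 0.07 (adjusted p = 3.36e-07). Dual minus control was -0.35 ± 0.07 (adjusted p = 0.00217), and the departure from additivity was -0.81 ± 0.12 (adjusted p = 0.0018). Its paralog timp2a, also an inhibitor gene, averaged 7.31 in dual, 8.05 in Atg7, 6.73 in Bdh2 and 7.74 in control arrays, with dual minus Atg7 at -0.74 ± 0.093 (adjusted p = 7.91e-05) and Bdh2 minus control at -1.01 ± 0.13 (adjusted p = 0.000148). For spock3, a secreted proteoglycan, the Bdh2 array was lower than controls by -0.42 ± 0.1 (adjusted p = 0.0077).

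Likeness to mmp9 was measured by Pearson's r over the 10 arrays, among 655 probe sets with 1 gene symbol and a range of at least 1 on the log2 scale. The 5 genes with the highest r were timp2b (0.994), phlda3 (0.992), junbb (0.989), rps27l (0.986) and lnx1 (0.977). All 10 points share the 4-group structure, so r mostly follows the group means and describes the likeness only. Among these, phlda3 and rps27l are p53 target genes in mammals, junbb encodes an AP-1 subunit, and lnx1 encodes a ubiquitin ligase. Group means of rps27l were 9.21 in dual, 11.02 in Atg7, 9.69 in Bdh2 and 9.75 in control arrays.

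These 5 genes were chosen for their likeness over the same arrays, so their group differences describe the choice and are given here without tests. The tests of timp2b and junbb stand with the inhibitor and AP-1 gene lists. Atg7 minus control was 1.27 for rps27l and 0.82 for phlda3, and dual minus Atg7 was -1.82 and -1.35. Among the metalloproteinases, r with mmp9 was 0.967 for mmp13a, 0.955 and 0.918 for the mmp2 probe sets, and -0.474 for mmp11b.

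The pattern of mmp13a was most like that of mmp2 probe set B (0.992), followed by prl (0.988), ppdpfb (0.985), msmo1 (0.98) and wu:fb51h06 (0.98). Prolactin, the product of prl, is a pituitary hormone, and msmo1 encodes an enzyme of cholesterol synthesis. Group means of msmo1 were 4.49 in dual, 6.05 in Atg7, 4.63 in Bdh2 and 5.35 in control arrays. The difference of the Bdh2 array from controls was -0.79 for mmp2, -0.48 for prl, -0.62 for ppdpfb, -0.71 for msmo1 and -1.3 for wu:fb51h06. Among the 5 genes most like mmp9 it was -0.29 for timp2b, -0.30 for phlda3, -0.31 for junbb, -0.06 for rps27l and -0.62 for lnx1, so the ranges of the sets overlapped.

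**Figure D4:**
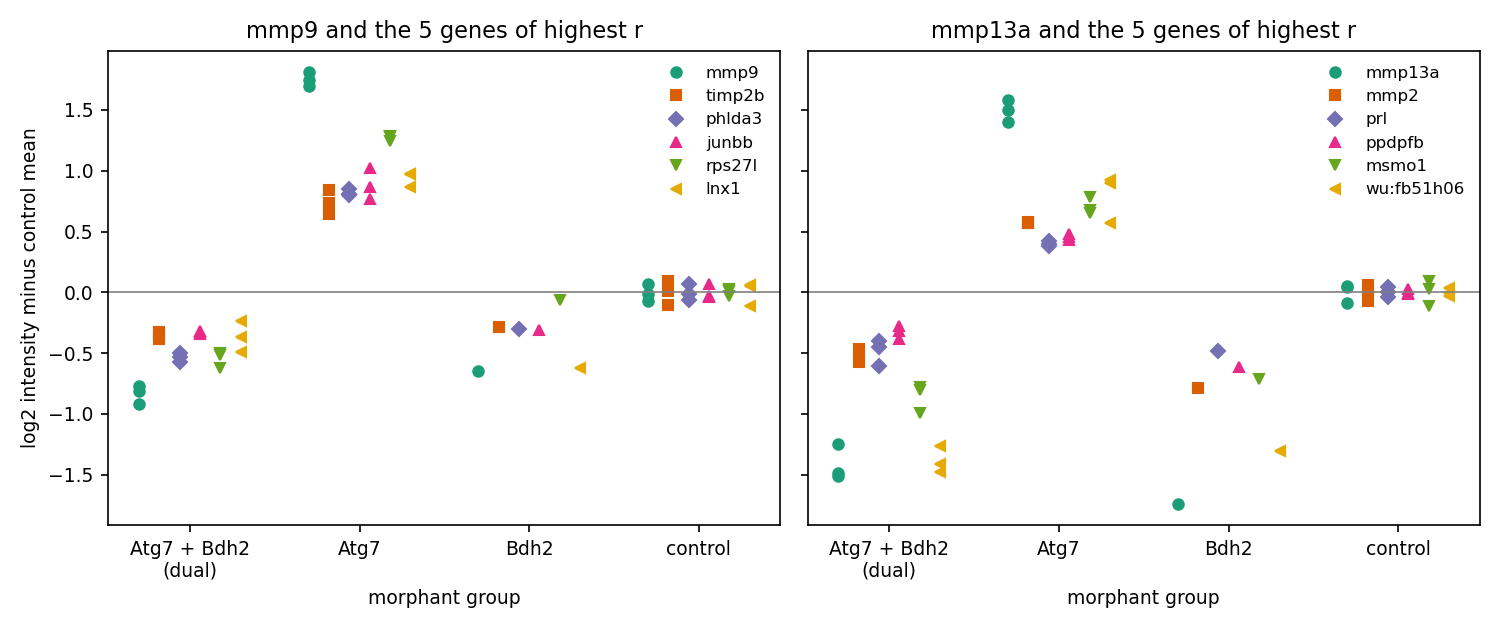
Log2 intensity minus the control mean for mmp9, mmp13a and the 5 genes most like each, in the order dual, Atg7, Bdh2 and control along the horizontal axis; each point is an array and each symbol a gene. The points of every gene are highest in the Atg7 group. In both panels the points of the Bdh2 array lie below 0, nearest to it for rps27l (-0.06).

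Genes of AP-1 and of NF-kB and cytokine signalling were set beside mmp9 and mmp13a, since both pathways are known regulators of these enzymes in mammals. Both lists were chosen with earlier results of these data known, so their counts are descriptive and are not an independent test. In Atg7 morphants 6 of 8 measured AP-1 genes were higher than controls and none was lower, and 10 of 13 NF-kB and cytokine genes were higher and none lower, where 6.28% of all named genes were higher and 4.12% lower. The AP-1 genes included fosab at 1.71 ± 0.1 (limma, adjusted p = 1.7e-06), junba at 1.24 ± 0.067 (5.86e-07) and fosl2 at 1.11 ± 0.063 (1e-06). The NF-kB and cytokine list included the interferon regulatory factor gene irf1b at 1.84 ± 0.068 (adjusted p = 3.57e-08) and the feedback inhibitor socs3a at 1.5 ± 0.058 (3.88e-08). Of the listed genes of NF-kB itself and its inhibitors, nfkbiaa (0.46 ± 0.08, limma, adjusted p = 0.0037) and nfkb2 (0.34 ± 0.064, adjusted p = 0.00601) were higher. The others, relb (0.04), nfkbiab (0.14) and nfkbiz (-0.15), did not pass. The median difference was 0.70 for the AP-1 list and 0.57 for the NF-kB and cytokine list, against -0.012 over all named genes.

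In dual morphants against controls 4 of 8 AP-1 genes were higher and 1 lower, and 2 were higher without dual replicate 2 or 3. Of the NF-kB and cytokine genes 4 of 13 were higher and 1 lower, and 2 were higher without dual replicate 2. Among them nfkb2 was higher by 0.47 ± 0.064 (limma, adjusted p = 0.000163), and in the Bdh2 array it stood 0.63 above controls. Of all named genes 15.2% were higher and 18.9% lower. The Fos gene fosab was raised by 1.19 ± 0.1 (limma, adjusted p = 4.85e-06), while junbb was lower at -0.33 ± 0.07 (adjusted p = 0.00336). In the Bdh2 array 4 of 8 AP-1 genes were higher than controls and 1 lower, and 3 of 13 NF-kB and cytokine genes were higher and none lower, or 1 higher without control replicate 2, against 15.4% higher and 14.9% lower over all named genes. There fosab exceeded controls by 1.91 ± 0.15 (adjusted p = 2.48e-06) and junba by 0.77 ± 0.094 (adjusted p = 9.67e-05), while junbb was lower at -0.31 ± 0.10 (adjusted p = 0.0371). The junbb call was lost without control replicate 1 (-0.27, adjusted p = 0.0916) or 2 (-0.32, 0.0591), or without dual replicate 2 (-0.31, 0.054). In dual morphants and in the Bdh2 array, mmp9, mmp13a and junbb stood below controls. Above controls in both were fosab, jun (0.27 in dual, 0.4 in Bdh2) and junba (0.21 and 0.77). The second probe set of jun was at 0.09 and 0.13. The part of AP-1 in these levels was not tested. The other 3 probe sets of fosab gave Atg7 minus control differences of 1.4, 0.44 and 0.53. Against controls they were at 1.11, 0.26 and 0.35 in dual morphants and at 1.76, 0.46 and 0.93 in the Bdh2 array. Between dual and Atg7 morphants 5 of 8 AP-1 genes and 9 of 13 NF-kB and cytokine genes were lower and none higher, against 20.0% lower and 15.0% higher over all named genes. Departures from additivity in these lists included -2.43 ± 0.18 for fosab (adjusted p = 1.18e-05), -1.93 ± 0.12 for irf1b (adjusted p = 3.74e-06) and -1.8 ± 0.12 for junba (adjusted p = 4.35e-06).

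Other protease systems gave few calls for the Atg7 morpholino alone. In Atg7 morphants against controls none of 7 ADAM genes, none of 4 astacin genes and none of 2 proprotein convertases passed in limma after adjustment. No ADAMTS gene was among the genes measured here. At an unadjusted p below 0.05 the counts were 1, 1 and 0. With 6.28% of all named genes higher and 4.12% lower, these counts are near the background and say nothing particular about these families. One of 4 plasminogen system genes did, plg, which encodes the precursor of a protease that can open metalloproteinases (0.28 ± 0.06, adjusted p = 0.0124). Leaving out control replicate 2 removed the call (0.27, adjusted p = 0.0554), and the second probe set of plg was at -0.14. The protease inhibitor serpine2 was lower in dual morphants than in controls by -0.68 ± 0.065 (adjusted p = 9.37e-06) and than in Atg7 morphants by -0.69 ± 0.065 (adjusted p = 7.64e-06). In the Bdh2 array the 7 ADAM genes stood at -0.65 (adam23a) to 0.18 (adam19b) against controls. The plasminogen system genes were there at -0.48 (plg, with -0.21 on its second probe set), -0.51 (serpine2), -0.04 (plaua) and 0.51 (serpinf2a).

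Matrix genes were measured as 20 of 37 listed collagen and fin fold genes and 18 of 42 listed glycoproteins. In dual morphants 4 collagen and fin fold genes were higher than controls and 8 lower, or 5 lower without control replicate 2 or dual replicate 1, against 15.2% higher and 18.9% lower over all named genes. The share of higher genes was thus 20.0%, near the background. The fin fold actinodin gene and2 fell by 1.81 ± 0.067 on the log2 scale in dual morphants (limma, adjusted p = 2.3e-09) and was also lower in Atg7 morphants, at -1.05 ± 0.067 (adjusted p = 2.18e-06). The collagen gene col10a1a was lower in dual morphants by -2.69 ± 0.054 (adjusted p = 1.35e-11), read by 1 probe set. The fibronectin gene fn1b was higher in Atg7 morphants by 1.23 ± 0.09 (adjusted p = 7.06e-06) and in dual morphants by 0.62 ± 0.09 (adjusted p = 0.000246), both against controls. Of the 18 glycoprotein genes fn1b was the only 1 higher in dual morphants and 3 were lower. These shares were 5.56% and 16.7%, against 15.2% and 18.9% of all named genes. In Atg7 morphants 2 were higher and none lower, against 6.28% and 4.12%, and 1 to 3 were higher without single arrays.

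**Figure D5:**
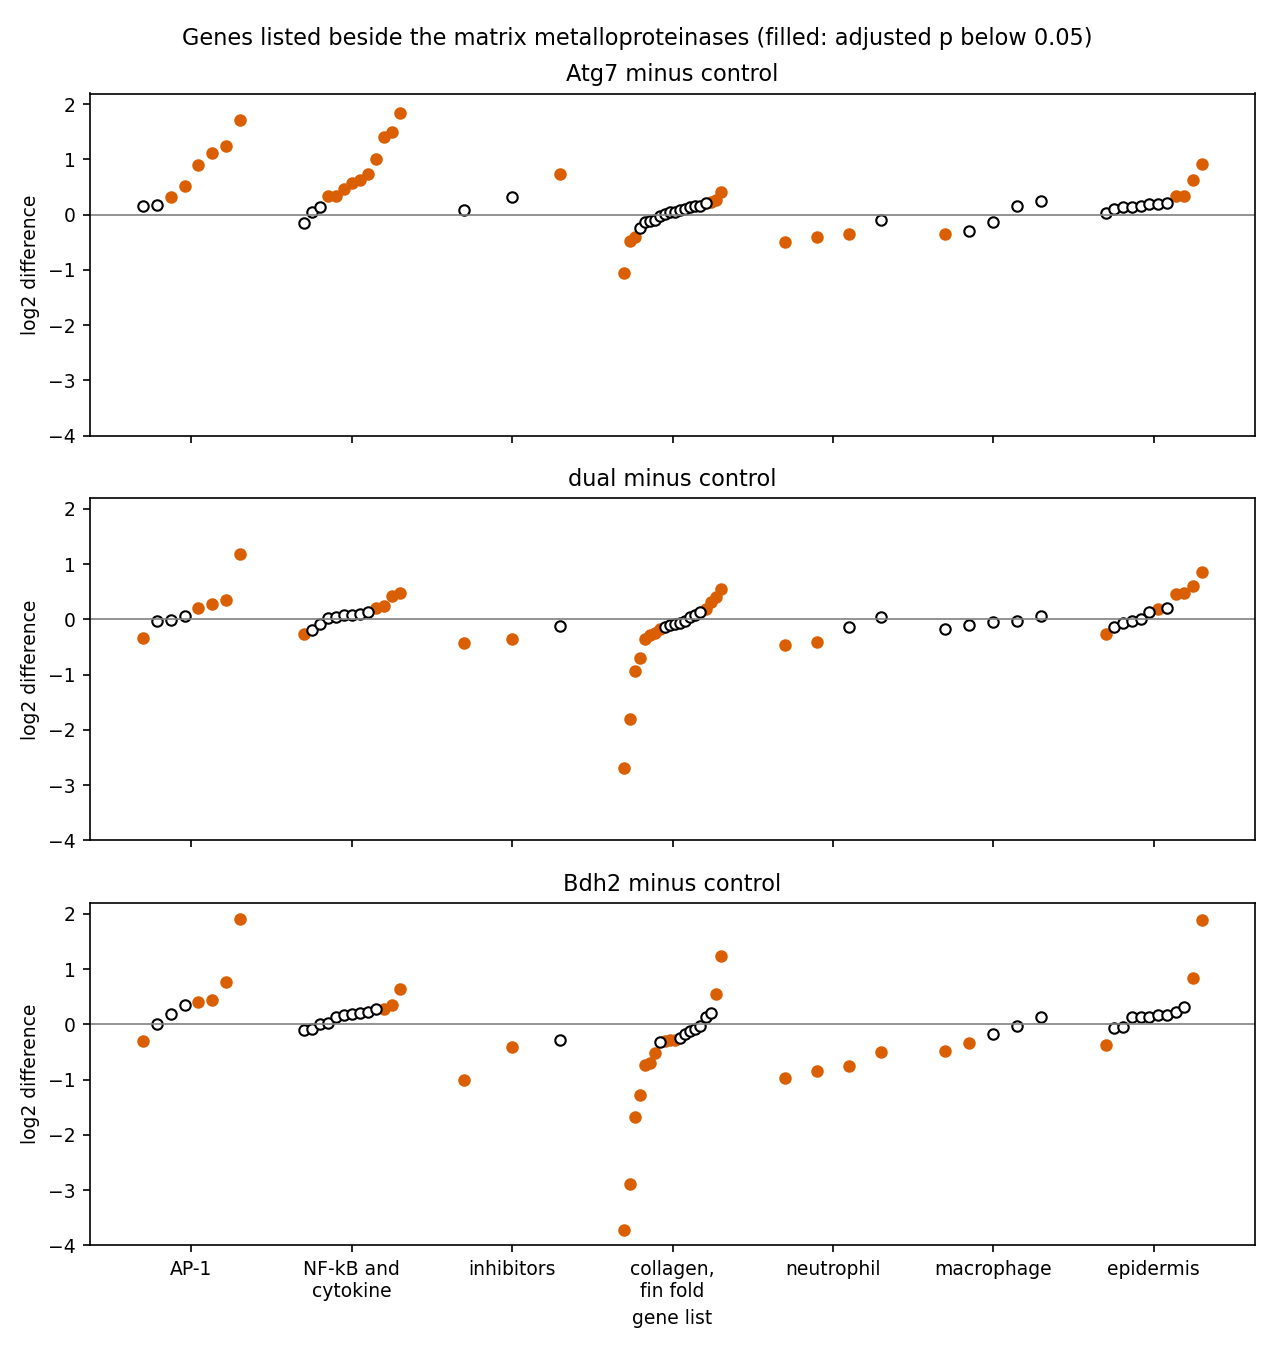
Log2 differences of the members of the gene lists set beside the metalloproteinases, in 3 panels for Atg7, dual and Bdh2 morphants, each minus control; each point is 1 gene, filled where it passed the threshold. AP-1 genes and NF-kB and cytokine genes lie mostly above 0 in Atg7 minus control, where their medians were 0.70 and 0.57.

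Because mmp9 and mmp13a are known from myeloid cells, the markers of those cells were read in the same arrays. In bulk RNA, fewer cells of a type and less RNA per cell cannot be told apart. The summed level of 4 neutrophil markers (mpx, lyz, srgn and cpa5) was 10.08 to 10.14 in dual, 9.98 to 10.03 in Atg7, 9.55 in Bdh2 and 10.45 to 10.50 in control arrays (log2). This sum was lower than controls in each of the other groups. Intensities were summed off the log scale, so each sum mostly follows its brightest genes. Here lyz averaged 10.16 in control arrays, and the other neutrophil markers averaged 5.96 to 7.12. In Atg7 morphants 3 of 4 were lower than controls, with lyz, the lysozyme gene, at -0.50 ± 0.058 (limma, adjusted p = 0.000249), and none was higher, against 4.12% lower and 6.28% higher over all named genes. The mpx probe set used was at -0.35, and the other 3 mpx probe sets were at 0.01, -0.16 and 0.00. In dual morphants 2 of 4 were lower than controls, lyz at -0.41 and cpa5 at -0.47, and none was higher. Of all named genes 18.9% were lower and 15.2% higher there. In the Bdh2 array the differences from controls were -0.97 for lyz, -0.85 for mpx, -0.75 for cpa5 and -0.51 for srgn. The other 3 mpx probe sets were at 0.51, -0.19 and 0.18 in that array.

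The summed level of 5 macrophage markers was 9.89 to 9.99 in dual, 9.69 to 9.82 in Atg7, 9.76 in Bdh2 and 10.05 to 10.14 in control arrays. It mostly follows cd68, which averaged 9.98 in control arrays, while the other macrophage markers averaged 3.10 to 4.62. In Atg7 morphants cd68 alone of the 5 passed against controls (-0.36 ± 0.064, limma, adjusted p = 0.0041), and in dual morphants none did. Of all named genes 4.12% were lower in Atg7 and 18.9% in dual morphants. The summed level of 7 markers of all leukocytes was 9.91 to 9.96 in dual, 10.03 to 10.14 in Atg7, 9.86 in Bdh2 and 9.93 to 10.01 in control arrays. It mostly follows its brightest genes, arpc1b and cebpb. In control arrays arpc1b averaged 8.3 and cebpb 8.12, and in Atg7 arrays 8.23 and 8.74. In Atg7 morphants 1 of these 7 was higher than controls, cebpb, at 0.62 ± 0.074 (limma, adjusted p = 0.000308), which the NF-kB and cytokine list also holds. The leukocyte cytoskeleton genes lcp1 and coro1a were lower, at -0.40 ± 0.069 (adjusted p = 0.00351) and -0.27 ± 0.066 (adjusted p = 0.0231). The call of coro1a was lost without any 1 control replicate or without Atg7 replicate 2 or 3 (adjusted p of 0.0562 to 0.0782). Epidermis, another site of mmp9 in wounded fish, had a summed level over 12 markers of 15.19 to 15.26 in dual, 15.26 to 15.31 in Atg7, 15.29 in Bdh2 and 15.14 to 15.15 in control arrays. Its brightest gene, krt4, averaged 13.95 in control arrays. Against controls krt4 did not pass in Atg7 (0.10 ± 0.056, limma, adjusted p = 0.309) or dual morphants (0.13 ± 0.056, adjusted p = 0.0999). Of the 12 epidermal markers 5 were higher and 1 lower in dual morphants than in controls, against 15.2% and 18.9% of all named genes. In Atg7 morphants 4 were higher and none lower, against 6.28% and 4.12%, and in the Bdh2 array 2 were higher and 1 lower, against 15.4% and 14.9%. With a trended, robust prior on the spread the higher counts for Atg7 and Bdh2 were 8 and 6. The epidermal sum was thus higher than in controls in every other group. The part of cell composition in these results was not tested.

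The nearest protein-coding genes with a named probe set on either side of mmp9 and mmp13a, by the RefSeq gene order, were read for comparison. For mmp9 these were srpk1a, at 0.03 in Atg7 minus control (limma, adjusted p = 0.834), and dclre1b, at -0.01 (adjusted p = 0.957). For mmp13a they were acat1, at 0.02 (adjusted p = 0.866), and nrip1b, at 0.30 (adjusted p = 0.0206). Of these 4 genes nrip1b passed the threshold, with a smaller difference than mmp13a.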

How the data were processed

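Whole zebrafish embryos of 4 morphant groups were measured on 10 Affymetrix arrays. The deposited values are log2 intensities, 1 per probe set, which the authors made with Affymetrix Expression Console, per the submitters' processing notes. Summarisation, background correction and normalization are not given in the sources used here. Log2 was read from the range of 2.48 to 14.9. Arrays had near-equal medians, which would hide a shift of all transcripts together, and a summary over probes can compress differences near background. Depth does not apply, and the number of arrays limits the precision.

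Of 15617 probe sets, 115 controls were left out and 15502 tested. The annotation gave 1 symbol for 10795, several for 135 and none for 4572, and RefSeq's GRCz12tu gene table held the Entrez ID of 10711. It was used for names and gene order. Every per-sample column was used.

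All 10 arrays entered 1 fit with limma 3.58.1 in R 4.3.3 (lmFit, eBayes), with 6 residual degrees of freedom and Benjamini-Hochberg adjustment over all probe sets at 0.05. The fit was tested on simulated data. Gene lists were counted with each gene's brightest probe set by mean over the arrays. Every metalloproteinase probe set is named. From each list mostly up to 3 genes with the smallest p in the more frequent direction, and 1 in the other, are named. Not every gene picked in this way is named, and some listed genes outside this rule are named too. The 5 genes most like mmp9 and mmp13a are named as well. The members and the lists were chosen with earlier results of these data known. Same-numbered replicates of different groups correlated at -0.375 to 0.197 in their deviations from the group means (9 pairs), against -0.277 to 0.375 for other numbers (18 pairs). No pairing by number was seen, but so few arrays cannot exclude it, and the fit used none. Alternatives left out each array in turn, added the replicate number as a block, quantile-normalized the values, dropped dim probe sets below 4.66, changed the prior on the spread, or fitted only the groups compared.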

Additional observations from a re-analysis of the deposited data

Results flagged for a closer look

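For 3 metalloproteinase genes the effect of the Atg7 morpholino differed with and without the Bdh2 morpholino, by the limma interaction term, which rests on the single Bdh2 array and on dual injections whose division of the dose is unstated. For mmp9 the Atg7 effect was -0.19 with the Bdh2 morpholino and 1.76 without it, a difference of -1.95 ± 0.11 on the log2 scale (adjusted p = 2.76e-06). For mmp13a the effects were 0.32 and 1.49, a difference of -1.17 ± 0.14 (adjusted p = 0.000405). For mmp11b they were 0.87 and -0.10, a difference of 0.97 ± 0.11 (adjusted p = 0.000208).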

How the results depend on the processing

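Directions and calls of mmp9 and mmp13a were the same under all alternatives run, in every comparison. Leaving out each array in turn gave Atg7 minus control values of 1.72 to 1.79 for mmp9 and 1.45 to 1.54 for mmp13a, and dual minus Atg7 values of -2.62 to -2.55 and -2.99 to -2.86. Their departure from additivity ranged over -1.98 to -1.90 and -1.26 to -1.13. Under the replicate block this term was -1.96 for mmp9 and -1.10 for mmp13a. The count of metalloproteinase probe sets past the threshold in dual minus Bdh2 was 2, and it was 1 to 2 without single arrays and 1 with the replicate block. The departure of mmp14b was 0.07, not past the threshold, and ranged over -0.05 to 0.16 without single arrays, with -0.01 without Atg7 replicate 2 and -0.05 without dual replicate 3; the cause was not tested. Of the single-gene values for the other probe sets, 535 kept direction and call, 17 lost the call and 7 gained one. Over all probe sets 1536 passed in Atg7 minus control, and this count was 937, 811 and 902 without control replicate 1, 2 and 3, 1011 without Atg7 replicate 1 and 1006 with the block. With the block the dual minus Bdh2 count was 1144, against 1870 without it, and that of the departure was 708, against 1261. The low signal of mmp17b kept it out of the alternative without dim probe sets, and array number limits the precision of every value.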

Other observations

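Matrix genes were also read in the single Bdh2 array, which has no replicate. There 20 collagen and fin fold genes had a median log2 difference from controls of -0.286 (limma). With the replicate block it was -0.258, and over all named genes the median was 0.034. The network-forming collagen gene col10a1a was at -3.72 ± 0.077 (adjusted p = 3.41e-11) and the actinodin genes and2 and and3, which build the fibres of the fin fold, were at -2.89 ± 0.095 (1.67e-09) and -1.67 ± 0.089 (1.2e-07). The fibril-associated collagen gene col14a1a was at 1.24 ± 0.12 (adjusted p = 2.01e-05). In dual morphants 10 of the 20 were higher than in the Bdh2 array and 1 was lower, against 6.71% higher and 6.68% lower over all named genes, and 6 were higher with the replicate block, with and2 at 1.09 ± 0.095 (adjusted p = 3.07e-05). The proteoglycan gene dcn, which codes for the collagen-binding protein decorin, was lower than controls by -0.74 ± 0.095 in the Bdh2 array (adjusted p = 0.000143) and by -0.45 ± 0.068 in dual morphants (adjusted p = 0.000299).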
